A study of Mus musculus with 6 samples.

Results

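RNA levels of 10 genes of the NF-κB pathway were measured in Treg cells that were sufficient or deficient in OGT. They were chosen by gene symbol among the 24420 genes of the deposited table, and all 10 were found. The list holds the 5 subunits of the factor (*Rel*, *Rela*, *Relb*, *Nfkb1* and *Nfkb2*), 3 inhibitors (*Nfkbia*, *Nfkbid* and *Tnfaip3*) and 2 parts of the IKK complex that activates it (*Ikbkb* and *Ikbkg*). The libraries came from YFP+ CD4 T cells of lymph nodes of female C57BL/6 mice, with 3 samples of Foxp3YFP-Cre/wt Ogtwt/fl (OGT-sufficient) and 3 of Foxp3YFP-Cre/wt Ogtfl/fl (OGT-deficient). Both groups therefore carried a Cre allele driven by the *Foxp3* locus and at least 1 floxed *Ogt* allele, and the labels name no treatment. *Foxp3* lies on the X chromosome, so in these heterozygous females YFP marks the Treg cells that use the chromosome with Cre, next to YFP- Treg cells without it. The labels give neither ages nor whether a sample is 1 mouse or a pool. The paper's methods give only a general age range, and its results call females of the OGT-deficient genotype adult. All 10 genes passed the filter on low counts. Gene positions are those of protein-coding genes in GENCODE M21 on GRCm38.

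OGT attaches O-GlcNAc, a single sugar, to serine and threonine residues of nuclear and cytoplasmic proteins, and both c-Rel and RelA are known to carry it. NF-κB factors are dimers of Rel-family proteins that inhibitors of the IκB family hold inactive in the cytoplasm. Signals from the T-cell receptor or TNF-family receptors activate the IKK complex, which marks the inhibitor for degradation and frees the dimer. In T cells c-Rel helps to switch on *Foxp3* in the thymus, and c-Rel and RelA are both used by mature Treg cells. The freed factor also raises transcription of its own inhibitors, which ends the signal. RNA counts do not measure nuclear localization or modification of these proteins.

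The total count per library was between 3375454 and 4103552. The deleted gene itself, *Ogt*, gave 562, 632 and 957 counts in OGT-sufficient replicates 1, 2 and 3 against 327, 266 and 368 in the OGT-deficient ones, in the direction of the labels. Of 9 Treg and T-cell markers with a row, none was without counts, and *Foxp3* had between 719 and 1116 counts per library. The summed level of the 9 ran from 2586 to 3632 CPM in OGT-sufficient and from 3269 to 3815 CPM in OGT-deficient libraries. Other cells were also represented. The summed level of 12 macrophage markers ran from 1976 to 4176 CPM in OGT-sufficient and from 1431 to 6012 CPM in OGT-deficient libraries, and that of 8 B-cell markers from 99.3 to 353 and from 96.0 to 168 CPM. The highest gene of these lists was *Vcam1* among the macrophage and *Ms4a1* among the B-cell markers. CPM here divides each count by a library size scaled with TMM, which corrects for depth and composition. No macrophage or B-cell marker was at 0 in all libraries, whereas of 6 erythroid markers *Hba-a1* was. OGT-sufficient replicate 3 stood apart, with 18346 genes having a count against 14412 to 15197 in the other 5, 310 olfactory receptor genes having one against 13 to 56, and the highest B-cell and erythroid sums. The ribosomal transcript *Rn45s* made up 24.2% of its counts and 30.6% to 37.1% of those of the others. In such bulk samples, fewer cells of a type and less RNA per cell cannot be told apart.

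The stretches before the transcription starts are shown for the 3 inhibitors and *Rel*, genes on which the factor is known to act through κB elements. RefSeq start sites of GRCm38.p6, the mm10 build named in the submitters' processing notes, were used. Capitals mark matches to the κB consensus, a motif of 10 letters searched on both strands. Members and starts were picked because they hold such a match, with inhibitors first. The windows of the other starts of *Nfkbid* and *Tnfaip3* held 0 matches. Each line gives 250 bases up to the RefSeq start, 5′ to 3′ on the strand of the gene. The GENCODE gene positions given below can begin further upstream. The *Nfkbid* stretch, nearly all of the *Tnfaip3* stretch and the *Nfkb2* matches named below lie within them.
Nfkbia, chr12:55492648-55492897, minus strand: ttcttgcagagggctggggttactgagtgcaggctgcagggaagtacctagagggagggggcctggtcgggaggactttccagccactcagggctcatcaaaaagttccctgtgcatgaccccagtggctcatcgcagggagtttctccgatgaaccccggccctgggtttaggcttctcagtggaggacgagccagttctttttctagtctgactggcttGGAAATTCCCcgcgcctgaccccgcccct
Nfkbid, second start, chr7:30422156-30422405, plus strand: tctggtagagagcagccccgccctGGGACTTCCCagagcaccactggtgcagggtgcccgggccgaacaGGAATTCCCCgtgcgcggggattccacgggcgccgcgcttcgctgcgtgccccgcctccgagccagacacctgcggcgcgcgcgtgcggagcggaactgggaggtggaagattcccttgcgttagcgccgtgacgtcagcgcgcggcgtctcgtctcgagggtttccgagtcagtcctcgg
Tnfaip3, first start, chr10:19015411-19015660, minus strand: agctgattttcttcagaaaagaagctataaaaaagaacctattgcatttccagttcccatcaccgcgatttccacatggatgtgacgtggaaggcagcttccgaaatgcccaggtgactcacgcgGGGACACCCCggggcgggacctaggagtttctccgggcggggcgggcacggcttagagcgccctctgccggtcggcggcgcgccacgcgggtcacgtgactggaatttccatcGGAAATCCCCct
Rel, chr11:23770970-23771219, minus strand: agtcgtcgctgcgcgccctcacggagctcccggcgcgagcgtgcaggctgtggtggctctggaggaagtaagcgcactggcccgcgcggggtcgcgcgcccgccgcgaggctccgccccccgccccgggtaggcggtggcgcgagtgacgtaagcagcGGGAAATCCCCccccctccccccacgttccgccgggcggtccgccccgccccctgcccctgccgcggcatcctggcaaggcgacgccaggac
In windows that run 50 bases further past the start, 5 of the 7 members with an entry held at least 1 match, against 9.55% of the 27025 genes with an entry and 12.2% of the 8359 such genes that were tested. These members were *Rel*, *Nfkb2*, *Nfkbia*, *Nfkbid* and *Tnfaip3*, while the windows of *Rela* and *Ikbkg* held none. *Relb*, *Nfkb1* and *Ikbkb* had no entry. A gene was counted if any of its windows held a match, so genes with more starts had more chances. Of all 32851 windows taken singly, 8.46% held a match. *Nfkb2* has 3 start sites, and its first window held GGGAATTCCC at chr19:46304698-46304707, which matches on both strands, a match that overlaps it and GGGGCTTTCC at chr19:46304726-46304735. *Nfkbia* held GGAAATTCCC at chr12:55492667-55492676. *Rel* held GGGAAATCCC, first base at position -92 from the start, overlapped by a match that begins 1 base later. A match is only a description of the letters.

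The subunits were the members that stood apart. All 5 had a lower mean in the OGT-deficient libraries, and in 4 of them no OGT-deficient sample reached the lowest OGT-sufficient one. Over all 10949 genes tested, 7.48% had no overlap in this direction, and no inhibitor or IKK gene did. The test used was edgeR's quasi-likelihood test, adjusted over all genes tested. At an FDR of 0.1, 0 of the 10 members passed, where the background was 0.0274%. At an unadjusted p under 0.05 there were 3 members, all subunits and all lower, with 7.1% of all genes passing this threshold and 4.01% passing it in the lower direction. Without adjustment for the number of genes these 3 are no calls, and the values below are given as measured differences.

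*Nfkb2* (chr19:46304320-46312385, plus strand) encodes p100, an inhibitor-like precursor that is cut to the p52 subunit by the alternative NF-κB pathway. It was at 95.8, 91.5 and 88.1 CPM in OGT-sufficient replicates 1, 2 and 3, and at 58.1, 73.3 and 74.9 CPM in OGT-deficient replicates 1, 2 and 3. The groups were apart, and OGT-deficient replicate 1 was the lowest. The mean was 91.8 ± 3.87 CPM (SD, n = 3) against 68.8 ± 9.30 CPM (SD, n = 3), 25.1% lower, and the log2 fold change was -0.42 with an adjusted p of 0.551 and a standard error of 0.13. Its unadjusted p was 0.0113, and 2.03% of the genes tested had a lower one. The macrophage sum was at its lowest, 1431 CPM, in the same OGT-deficient replicate 1; its part in the result was not tested. Without that library the log2 fold change of *Nfkb2* was -0.31.

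*Nfkb2* shares 299 exonic bases, 6.52% of its exons, with *Psd* on the other strand, and 11.6% of its exons with a bidirectional lncRNA, AC114539.1. *Psd* had 41, 43 and 62 counts in OGT-sufficient and 22, 28 and 34 in OGT-deficient samples, against 336 to 360 and 226 to 291 counts of *Nfkb2*. The strand setting of the counting is not given in the sources used here, so reads in the shared bases cannot be told apart.

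*Relb* (chr7:19606217-19629438, minus strand) encodes the partner that p52 usually takes in the alternative pathway. Its level was 28.7, 30.9 and 26.2 CPM in the OGT-sufficient replicates and 20.3, 23.2 and 18.5 CPM in the OGT-deficient ones. The groups were again apart. The means were 28.6 ± 2.32 and 20.7 ± 2.35 CPM (SD, n = 3 each), or 27.7% lower. The log2 fold change, -0.47 with an adjusted p of 0.565 and a standard error of 0.16, was the lowest among the members. It rested on 71 to 115 counts per library, the fewest of the 10 genes. Its unadjusted p was 0.0156. *Relb* is also expressed by B cells and dendritic cells. Within the OGT-sufficient group it was lowest in replicate 3, where the B-cell sum was highest. All 8 B-cell markers had a log2 fold change below 0, with a median of -0.81. Without OGT-sufficient replicate 3, 4 of the 8 were below 0 and their median was -0.014. The log2 fold change of *Relb* was -0.52 in that fit. The part of B cells and dendritic cells in the level of *Relb* was not tested.

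*Rela* (chr19:5637483-5648130, plus strand) encodes the main transactivating partner of the classical pathway. It was at 78.2, 79.9 and 64.5 CPM in the OGT-sufficient replicates and at 58.8, 58.7 and 59.0 CPM in the OGT-deficient ones. The 3 OGT-deficient libraries were nearly alike, while OGT-sufficient replicate 3 lay between them and its own group. The means were 74.2 ± 8.47 and 58.8 ± 0.138 CPM (SD, n = 3 each), or 20.7% lower. On the log2 scale the fold change was -0.33 with a 95% interval from -0.62 to -0.05 (adjusted p = 0.623, unadjusted 0.0250). Without OGT-sufficient replicate 3 it was -0.42.

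*Nfkb1* (chr3:135584655-135691547, minus strand) encodes p105, the precursor of the p50 subunit. The level was 238, 289 and 239 CPM in the OGT-sufficient replicates and 227, 212 and 230 CPM in the OGT-deficient ones. The groups did not overlap, but the nearest libraries, at 230 and 238 CPM, were close and OGT-sufficient replicate 2 was the only one far from the rest. The log2 fold change of -0.20 (adjusted p = 0.757) had a 95% interval from -0.47 to 0.07, and was -0.10 without OGT-sufficient replicate 2. With library size alone as the scale the 2 groups of *Nfkb1* overlapped.

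*Rel* (chr11:23736847-23770970, minus strand), which encodes c-Rel, overlapped between the groups. It was at 65.5, 63.3 and 80.2 CPM in the OGT-sufficient replicates and at 65.8, 63.2 and 63.9 CPM in the OGT-deficient ones, so 5 libraries were nearly level and OGT-sufficient replicate 3 was high. Its log2 fold change was -0.12 (95% interval -0.41 to 0.18), and it became 0.0076 without that replicate.

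Without OGT-sufficient replicate 3 the 4 subunits were still apart, but groups that are apart stay so without a sample, except through rescaling. That count therefore cannot show whether the result rests on that library. At an unadjusted p under 0.05 there were 3 members without it. Other libraries mattered more for this second count, which was 0 without OGT-sufficient replicate 1, 1 without OGT-sufficient replicate 2 and 1 without OGT-deficient replicate 3. With DESeq2 it was 1, *Nfkb2*. With 3 samples a group, 0.1 is the smallest two-sided p that an exact permutation test allows.

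**Figure D1:**
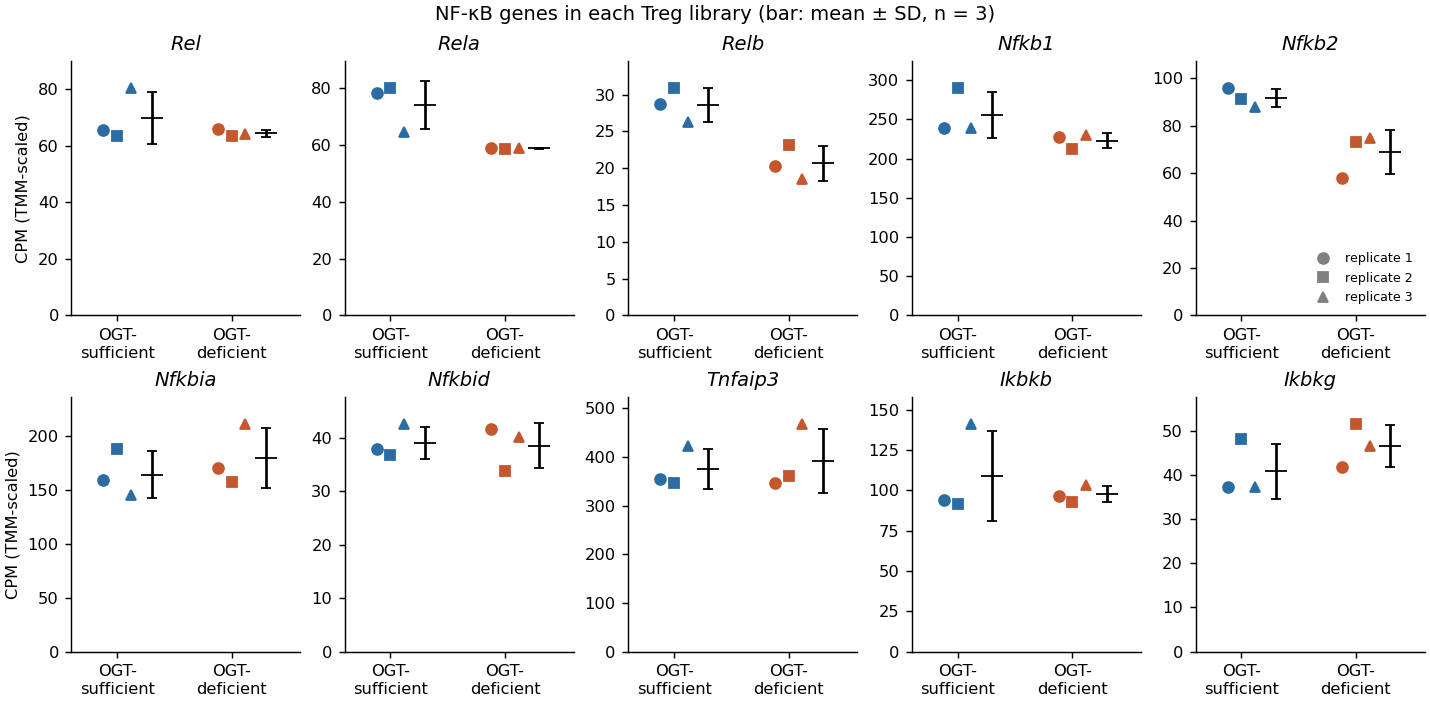
CPM (TMM-scaled, linear axis from 0) of each of the 10 genes in the 3 OGT-sufficient (blue) and 3 OGT-deficient (orange) libraries, with symbols for the replicate number and bars for the mean ± SD. *Rela*, *Relb*, *Nfkb1* and *Nfkb2* have no overlap between the groups, and the other 6 genes overlap.

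All 3 inhibitors overlapped between the groups, and none had an unadjusted p under 0.05. *Nfkbia* (chr12:55489410-55492647, minus strand), which encodes the classical inhibitor IκBα, was at 159, 188 and 145 CPM in the OGT-sufficient replicates and at 170, 158 and 211 CPM in the OGT-deficient ones. The highest value was in OGT-deficient replicate 3. The log2 fold change was 0.13 with a 95% interval from -0.20 to 0.47 (adjusted p = 0.878).

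*Tnfaip3* (chr10:19000910-19015657, minus strand) encodes A20, a ubiquitin-editing enzyme that stops signalling upstream of IKK. It was at 355, 347 and 423 CPM in the OGT-sufficient replicates and at 346, 361 and 467 CPM in the OGT-deficient ones. Replicate 3 of each group was the high one. Its log2 fold change of 0.06 (95% interval -0.28 to 0.40) took a negative sign with library size alone and without OGT-deficient replicate 3.

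*Nfkbid* (chr7:30421732-30428746, plus strand) encodes IκBNS, a nuclear IκB protein that works with p50 at target genes and takes part in *Foxp3* induction. The level was 37.8, 36.8 and 42.5 CPM in the OGT-sufficient replicates and 41.6, 33.8 and 40.2 CPM in the OGT-deficient ones. The values interleaved, and the log2 fold change was -0.02 (95% interval -0.33 to 0.30), which is from 20.7% lower to 22.9% higher on the linear scale. Its sign changed in several settings.

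The 2 IKK genes overlapped between the groups as well. *Ikbkb* (chr8:22659212-22706589, minus strand), which encodes the catalytic IKKβ, was at 93.9, 91.2 and 141 CPM in the OGT-sufficient replicates and at 96.6, 93.0 and 103 CPM in the OGT-deficient ones. OGT-sufficient replicate 3 was again the high library, and the log2 fold change of -0.16 (95% interval -0.55 to 0.24) was 0.084 without it. *Ikbkg* (chrX:74393290-74453854, plus strand) encodes NEMO, the regulatory part of IKK, and like *Ogt* and *Foxp3* it lies on the X chromosome. It was at 37.3, 48.0 and 37.2 CPM in the OGT-sufficient replicates and at 41.9, 51.4 and 46.5 CPM in the OGT-deficient ones, with a log2 fold change of 0.19 (95% interval -0.15 to 0.53). Its exons share 418 bases with *G6pdx* on the other strand, so it is subject to the same limit of strand.

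Levels of different genes were compared per kb of length. On the exon union of each gene in GENCODE M21, *Nfkbia* was the highest member at 107 ± 14.9 CPM per kb (SD over the 6 libraries) and *Tnfaip3* followed at 53.0 ± 6.93. Neither overlapped its neighbours in this order. *Rela*, *Nfkb1*, *Nfkb2* and *Nfkbid* came next at 21.7, 19.8, 17.5 and 16.5 CPM per kb, and neighbours among them overlapped. *Rel* stood at 8.97 CPM per kb, apart from *Nfkbid* above and *Relb* below, although on the longest transcript it overlapped *Relb*. *Relb* (6.34 CPM per kb), *Ikbkb* and *Ikbkg* (5.39 CPM per kb) were lowest and overlapped one another.

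The places of *Nfkb1* and *Ikbkb* in this order moved most with the length that was used. The exon union of *Nfkb1* is 12061 bases while its longest transcript has 4149, and for *Ikbkb* these are 19078 and 4845. On the longest transcript *Nfkb1* was at 57.7 and *Ikbkb* at 21.3 CPM per kb, and *Nfkb1* then overlapped *Tnfaip3*. *Nfkbia* and *Tnfaip3* were first and second on both lengths.

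The share of each subunit was taken of the summed level of the 5 per kb. *Rel* ran from 9.81% to 13.9% on the exon union and from 6.02% to 8.73% on the longest transcript, highest in OGT-sufficient replicate 3 on both. On the longest transcript *Nfkb1* made up between 44.6% and 51.4% of the summed level of the subunits per kb in the 6 libraries, and *Relb* between 5.11% and 6.82%. On the exon union these ranges were 24.0% to 29.1% and 7.02% to 9.19%. The share of *Nfkb2* on the exon union was 24.4 ± 1.19% in OGT-sufficient and 22.5 ± 2.52% in OGT-deficient samples (SD, n = 3 each), a difference within the spread, with 19.6% in OGT-deficient replicate 1.

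**Figure D2:**
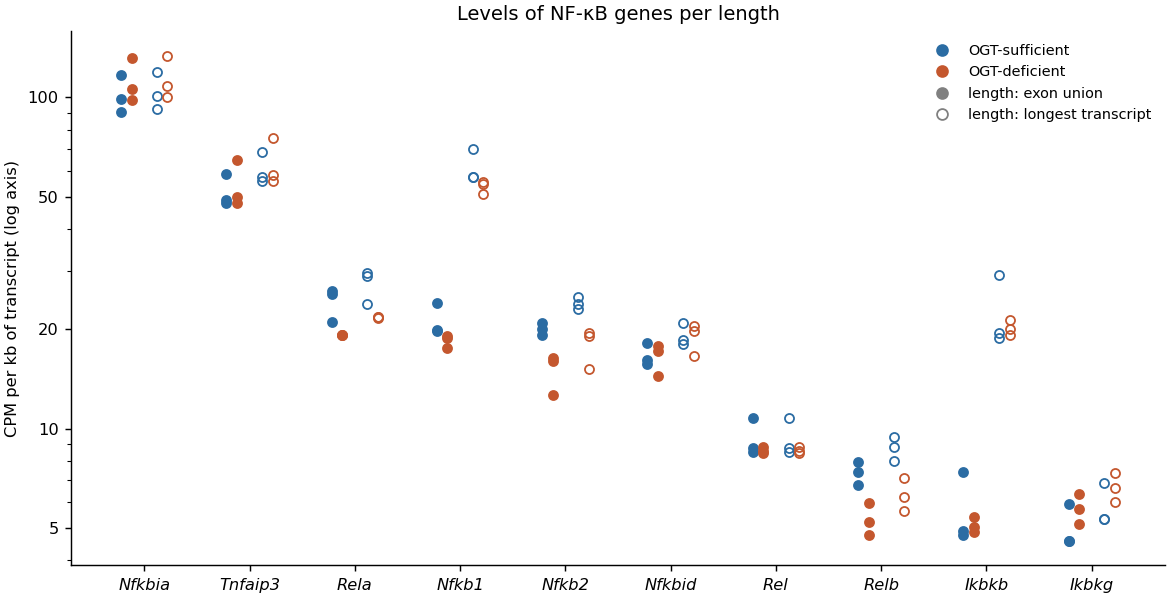
CPM per kb of each gene (log axis) in the 6 libraries, blue for OGT-sufficient and orange for OGT-deficient, with filled symbols for the exon union and open symbols for the longest transcript as the length. *Nfkbia* and *Tnfaip3* have the highest means on both lengths, while *Nfkb1* and *Ikbkb* move most between them.

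Genes around the factor were counted from lists that hold none of the members. Over all genes tested, 7.1% had an unadjusted p under 0.05, the share to set beside each count below. Of 8 other IκB proteins and IKK kinases, 1 had an unadjusted p under 0.05, and none was called at an FDR of 0.1. It was *Nfkbiz*, a nuclear IκB protein induced by inflammatory signals, which was at 149, 144 and 149 CPM in the OGT-sufficient and at 175, 168 and 185 CPM in the OGT-deficient replicates (log2 fold change 0.25, adjusted p = 0.669). Its OGT-deficient libraries were all above the OGT-sufficient ones, as in 5.72% of all genes tested. The median log2 fold change of the list was -0.10, beside -0.02 over all genes tested.

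Of 10 genes that carry the T-cell receptor signal to IKK, 1 had an unadjusted p under 0.05, against 7.1% of all genes tested. In 9 the groups overlapped. The list's median log2 fold change was 0.0046, with 5 values below 0 and 5 above, and 0.11 without OGT-sufficient replicate 3.

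Among 7 genes of the alternative pathway 0 had an unadjusted p under 0.05 and 0 were apart, although *Nfkb2* and *Relb* belong to this pathway. The 3 of highest level were *Birc3*, *Birc2* and *Traf3*, parts of the complex that degrades the kinase NIK, with log2 fold changes of 0.14, -0.19 and -0.02. *Map3k14*, which encodes NIK, was at 59.4 ± 5.10 and 65.1 ± 1.91 CPM (SD, n = 3 each). The median of the list was -0.02, and 0.11 without OGT-sufficient replicate 3. With a replicate left out it ran from -0.10 (without OGT-deficient replicate 1) to 0.14 (without OGT-deficient replicate 2). Of 12 ubiquitin editors 11 were tested, and *Otud7b*, a deubiquitinase of TRAF3, was the 1 with an unadjusted p under 0.05, at 58.4 ± 9.73 and 44.0 ± 4.41 CPM (SD, n = 3 each, log2 fold change -0.41, adjusted p = 0.662). The samples of its groups overlapped. The list's median was -0.07, and 0.060 over 12 genes without OGT-sufficient replicate 3.

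Of 23 genes known as targets of NF-κB 19 had enough counts to be tested. At an unadjusted p under 0.05, 2 were higher and 1 lower, against backgrounds of 3.09% and 4.01%. At an FDR of 0.1, 0 were called. *Irf4*, a factor of activated T cells and effector Treg cells, was at 96.1, 105 and 86.3 CPM in the OGT-sufficient and at 139, 130 and 163 CPM in the OGT-deficient replicates. The groups did not overlap, and the log2 fold change was 0.58 with an adjusted p of 0.306. *Myc*, a driver of growth, had a log2 fold change of 0.41 (adjusted p = 0.559) and *Junb*, an AP-1 subunit that is also an immediate early gene, one of -0.40 (adjusted p = 0.431). Neither overlapped between groups. Over all genes tested, 7.48% had no overlap in the lower and 5.72% in the higher direction, and these targets were named for their unadjusted p. The list's median was 0.02, with 9 values below 0 and 10 above, beside 52.7% below 0 over all genes tested, and it was -0.053 over 20 genes without OGT-sufficient replicate 3.

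The immediate early genes, which T-cell receptor signals and cell handling switch on, lay on both sides of 0. Of 12, 3 were lower and 2 higher at an unadjusted p under 0.05, against backgrounds of 4.01% and 3.09%, with 0 called at an FDR of 0.1. The lower ones were *Egr1*, *Egr2* and *Egr3* with log2 fold changes of -0.45, -0.43 and -0.46. The higher ones were *Nr4a1* and *Nr4a3* with 0.45 and 0.28. All 5 had no overlap between the groups, as had 7.48% of all genes tested in the lower and 5.72% in the higher direction. The 5 were named for their unadjusted p, so this is not a separate result. The list's median was 0.11, and with a replicate left out it ran from -0.16 (without OGT-deficient replicate 3) to 0.24 (without OGT-deficient replicate 2). The summed level of the 12 was highest in OGT-deficient replicate 3, at 1290 CPM against 863 to 1044 CPM in the others, and *Nfkbia* and *Tnfaip3* were also highest in that library. The part of this in their values was not tested.

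**Figure D3:**
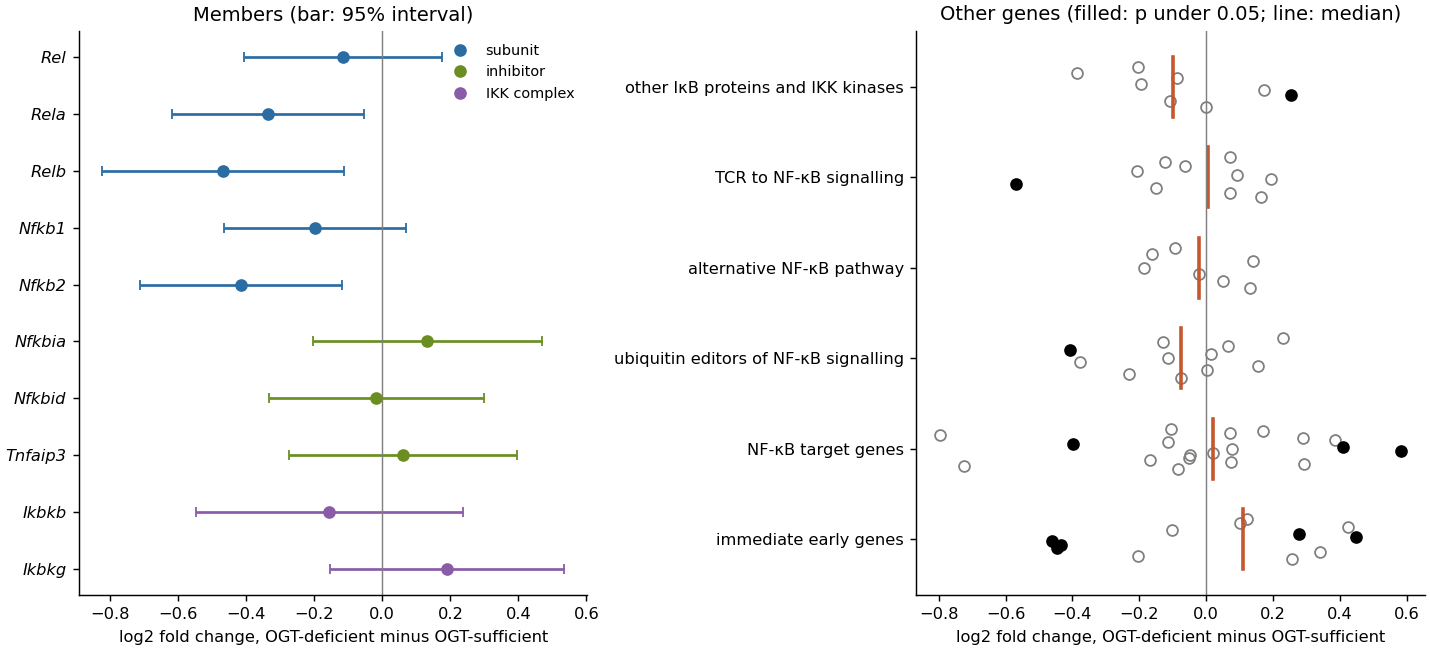
Log2 fold changes (OGT-deficient minus OGT-sufficient) with 95% intervals for the 10 members on the left, and of the tested genes of 6 other lists on the right, with filled points at an unadjusted p under 0.05 and a line at each median. The intervals of *Rela*, *Relb* and *Nfkb2* do not reach 0, and the medians of the 6 lists lie between -0.10 and 0.11.

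**Figure D4:**
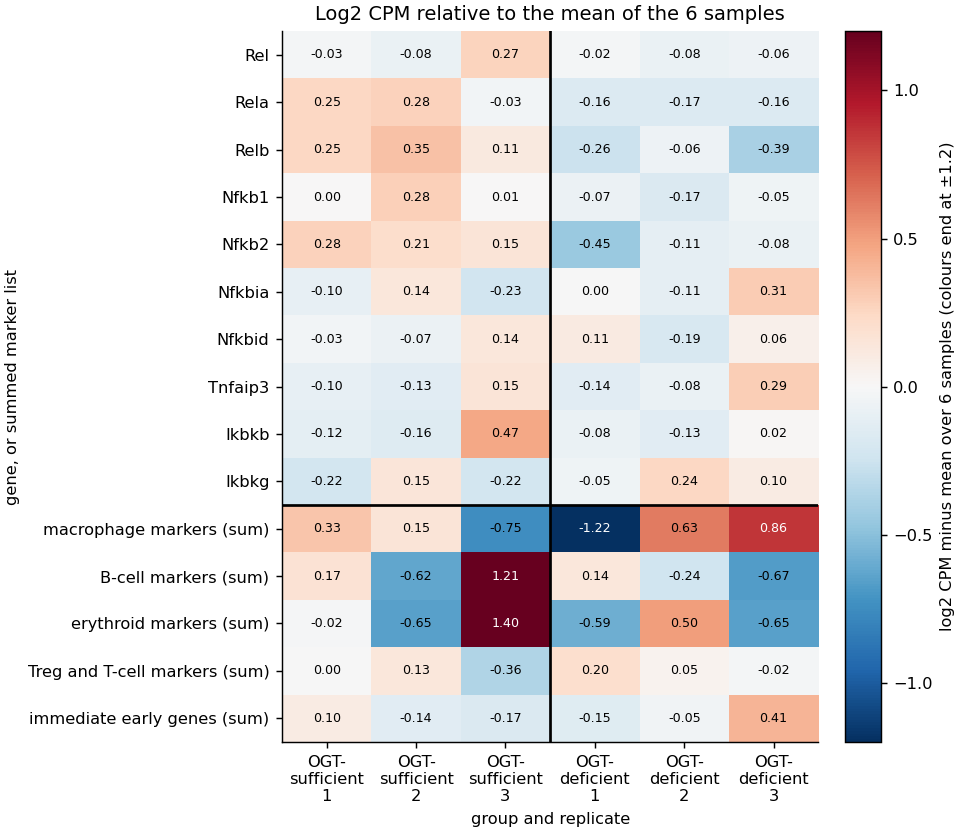
Log2 CPM of each member, and of the summed CPM of 5 marker lists, relative to the mean over the 6 libraries (columns, by group and replicate). The macrophage sum runs from 1431 CPM in OGT-deficient replicate 1 to 6012 CPM in OGT-deficient replicate 3, while no member varies more than 1.67-fold.

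Ranges between libraries were small for most members. From the lowest to the highest library the fold was between 1.26 for *Nfkbid* and 1.67 for *Relb*. On the log2 scale 8 of the 10 ranges lay below the median range of all genes tested, which was 0.63. Such a range depends on the counts, and the genes compared were not matched to the members by count. Over the same libraries the macrophage sum varied 4.20-fold and the B-cell sum 3.68-fold. The sums of these lists varied within groups as well as between them, and their part in the levels of the members was not tested.

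**Figure D5:**
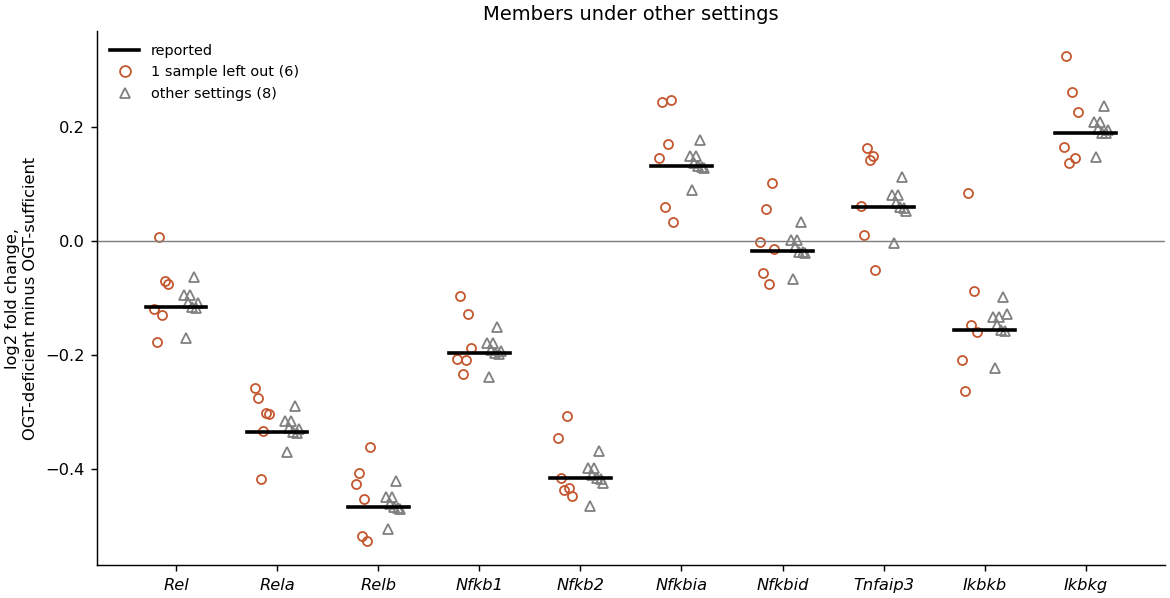
Log2 fold change of each member as reported (black line), with 1 library left out (orange circles, 6 each) and in 8 other settings (grey triangles). *Rela*, *Relb*, *Nfkb1* and *Nfkb2* are below 0 in all 14 alternatives, and *Nfkbia* and *Ikbkg* above 0 in all 14.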

How the data were processed

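RNA of sorted YFP+ Treg cells was sequenced as paired-end reads. The authors trimmed the reads with Trimmomatic 0.33 and aligned them with Bowtie2 2.2.4.0, to mm10 per the submitters' processing notes. The paper names Cuffquant for quantification and the notes featureCounts; annotation and strand are not given in the sources used here. The authors deposited whole numbers per gene symbol, taken as counts without normalization. Columns of the authors' own EDGE test and group means were not used. The labels do not pair the samples, and deviations of same-numbered samples had correlations of -0.29, 0.01 and -0.12.

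Tests used edgeR 4.0.16 in R 4.3.3 (TMM, quasi-likelihood test, minimum count of 10, Benjamini-Hochberg adjustment) and DESeq2 1.42.0, and in Python 3.11.15, after checks on simulated data. The 95% intervals follow from each standard error. The floor of 3 counts is 0.756 to 0.805 CPM. Libraries of a group differed beyond counting error (chi-square per degree of freedom 3.49 to 24.2). P-values measure only the spread between these samples, which may be technical. Members, lists and tests were chosen with earlier results of these data known. Genes named are the members, *Ogt*, *Foxp3*, up to 4 genes per pathway list with an unadjusted p under 0.05 or otherwise the 3 of highest level, and for 3 inhibitors the 3 genes with the nearest profile; *Map3k14*, *Psd*, *G6pdx*, *Il2ra*, *Tnfrsf18*, *Hba-a1* and low-count genes were named after their values were seen. *Trac* and *Ly6g* were not analysed here. Cell markers were used as summed levels. A gene that this rule would name is not reported here. Alternatives were other scalings, tests and filters, a block for the replicate number, and fits without each sample in turn.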

Additional observations from a re-analysis of the deposited data

How the results depend on the processing

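No member passed an FDR of 0.1 in any of the 14 alternatives. At an unadjusted p under 0.05, 3 members passed in the reported test and 1 with DESeq2, while fits without a replicate gave 0 to 3. With no overlap between groups, 4 members were lower as reported, 3 with library size only and 4 in each fit without a replicate. From 0 to 1 were higher, the 1 being *Ikbkg* without OGT-sufficient replicate 2. Leaving out a sample cannot make separate groups overlap except through rescaling, so the fits without a replicate do not test the 4. The median log2 fold change of the members was -0.14, moved to -0.20 with library size only, and ran from -0.16 to 0.032 with a replicate left out, the latter without OGT-sufficient replicate 3. Over all genes, 777 had an unadjusted p under 0.05, 502 with DESeq2, 1208 with no low-count filter and, over the fits without a replicate, 462 to 889. At an FDR of 0.1 these were 3, then 40 with DESeq2, 80 with the exact test, 131 with no low-count filter and, over the fits without a replicate, 0 to 9. With the replicate block, 3 members had an unadjusted p under 0.05, and 0 genes passed an FDR of 0.1 (679 at an unadjusted p under 0.05), with no sign that the numbers pair the samples.

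Signs of small differences changed. With a replicate left out, *Rel* ran from -0.18 to 0.0076, *Ikbkb* from -0.26 to 0.084, *Nfkbid* from -0.076 to 0.10 and *Tnfaip3* from -0.051 to 0.16. The highest values of *Rel* and *Ikbkb* came without OGT-sufficient replicate 3. *Nfkbid* was 0.0024 with DESeq2's size factors, 0.0023 with DESeq2, and 0.033 with no low-count filter. *Tnfaip3* was -0.0027 with library size only. The cause was not tested. Per kb of the longest transcript the levels were 57.7 CPM for *Nfkb1*, 20.9 for *Nfkb2*, 19.0 for *Nfkbid*, 61.8 for *Tnfaip3*, 21.3 for *Ikbkb* and 6.25 for *Ikbkg*. Counts of other lists stayed within 1.5 times in 123 of 168 cases. *Nfkb2* had an unadjusted p under 0.05 in 13 alternatives, *Relb* in 10 and *Rela* in 7. *Relb*, at 71 to 115 counts per library, is the member most limited by depth.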

Other observations

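Genes whose profiles over the 6 libraries were nearest to those of the 3 inhibitors were found by the root mean square difference of log2(CPM + 1), each centred on its mean. For *Nfkbia*, whose own range was 0.54, they were *Kti12*, *Arl5a* and *Cln6*, with differences of 0.025, 0.045 and 0.051. For *Nfkbid* they were *Slc10a7*, *Cecr5* and *Cenpq* (0.025, 0.033 and 0.038), and for *Tnfaip3* *Tmem42*, *Clpx* and *Tcf25* (0.054, 0.057 and 0.057). No other member or pathway gene of the lists was among them. With 10949 genes and 6 libraries such closeness is a description only.

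Of 9 Treg and T-cell markers tested, 7 had a log2 fold change above 0 and 2 below, from -0.26 to 0.57. In 7 the groups overlapped, and 2 were higher with no overlap, against 5.72% of all genes tested. The 2 were picked after their values were seen. *Il2ra*, the IL-2 receptor alpha chain and itself a known NF-κB target, was at 487, 607 and 327 CPM in the OGT-sufficient replicates. It was at 648, 625 and 649 CPM in the OGT-deficient ones, with no overlap (log2 fold change 0.44, adjusted p = 0.704). *Tnfrsf18*, which encodes GITR, was at 51.2 ± 17.9 and 75.9 ± 7.72 CPM (SD, n = 3 each; log2 fold change 0.57, adjusted p = 0.685). In both genes OGT-sufficient replicate 3 was the lowest library, and the Treg and T-cell marker sum was lowest there too, at 2586 CPM against 3269 to 3815 CPM in the others. Without that library the log2 fold change was 0.24 for *Il2ra* and 0.31 for *Tnfrsf18*. *Tnip3*, an A20-binding protein, had 6, 3 and 1 counts in OGT-sufficient and 10, 7 and 11 in OGT-deficient samples, too few to be tested. *Ier3*, an NF-κB target, had 4, 3 and 7 counts against 1, 1 and 1.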
